A study of Mus musculus with 6 samples.

Results

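The Kruppel-like factors described here are the 7 genes Klf2, Klf3, Klf4, Klf5, Klf6, Klf9 and Klf10, found by symbol among the 31053 genes of the kidney count table and the 31053 genes of the tumor count table. All 7 were present once in both tables. The libraries came from kidneys of C57BL/6 mice, male and 12 weeks old, and from mammary tumors of MMTV-PyMT mice, female and 10 weeks old, in which the mammary tumor virus promoter drives the polyoma middle T antigen mainly in mammary epithelium. Minced tissue was digested with 0.25% type I collagenase either by hand for 60 min (the control) or in a microfluidic platform, where cells were eluted at 15 min and tissue left in the device was processed further and eluted at 60 min. Dead cells were sorted out before loading, and each of the 3 conditions of a tissue gave 1 library, so that no test between conditions was possible. The question addressed is how the level of each factor differed between cell types and between the ways of dissociating the tissue.

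Kruppel-like factors are transcription factors whose zinc fingers bind GC-rich boxes and CACCC elements. Klf2 and Klf4 are known as flow-responsive regulators of quiescent, non-thrombotic endothelium, and Klf2 also controls lymphocyte trafficking and restrains myeloid activation. Klf6 is an early injury-response factor, Klf5 a factor of proliferating epithelia, Klf3 a repressor with a CtBP-binding motif, Klf9 a target of glucocorticoid and thyroid hormones, and Klf10 a Tgf-beta-inducible repressor. Several of these genes give short-lived transcripts that respond quickly to handling of tissue.

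In GENCODE M21 on mm10, Klf2 lies at chr8:72319033-72321656 on the plus strand, Klf3 at chr5:64803388-64832901 (plus), Klf4 at chr4:55527143-55532466 (minus), Klf5 at chr14:99298691-99315036 (plus), Klf6 at chr13:5861482-5870394 (plus), Klf9 at chr19:23141226-23168134 (plus) and Klf10 at chr15:38291463-38300706 (minus). All 7 are protein-coding. Klf3 overlaps C230096K16Rik on its own strand, so UMIs of these genes may not be fully separable. Levels are given as CPM (counts of the gene scaled to a fixed total of UMIs of the gated cells of a class, 1000000), with a 95% exact Poisson interval in parentheses where one is printed. Intervals of levels and of ratios cover counting error only, not differences between animals or digestions nor the bunching of a gene's UMIs in few cells, and UMI counts from 3′ tags were not divided by transcript length.

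Promoter bases upstream of the start were in the RefSeq table (GRCm38.p6, the same build as mm10) for 5 of the 7 genes, and 4 are shown because the first 3 genes differed most between libraries while Klf9 differed least in the proximal tubule. Capitals mark a MEF2 site in Klf2, CCAAT boxes (either strand) in Klf6 and Klf9 and an AP-1 site (TGANTCA) in Klf9. The last CCAAT boxes of Klf9 lie on opposite strands and share 2 bases, and no other capitalised sites overlap. The sequences run 5′ to 3′ on the strand of the gene and cover chr8:72318812-72319032, chr4:55532476-55532725, chr13:5861239-5861481 and chr19:23140976-23141225.
Klf2: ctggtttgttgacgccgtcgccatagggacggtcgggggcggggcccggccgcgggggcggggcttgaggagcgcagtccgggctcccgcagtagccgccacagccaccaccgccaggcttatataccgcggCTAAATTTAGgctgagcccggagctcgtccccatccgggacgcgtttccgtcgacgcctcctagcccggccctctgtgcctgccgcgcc
Klf4: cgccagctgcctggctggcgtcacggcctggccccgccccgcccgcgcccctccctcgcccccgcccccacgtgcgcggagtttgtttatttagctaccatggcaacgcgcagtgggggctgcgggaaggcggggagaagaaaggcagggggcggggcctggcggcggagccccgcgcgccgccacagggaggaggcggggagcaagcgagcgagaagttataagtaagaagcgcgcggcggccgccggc
Klf6: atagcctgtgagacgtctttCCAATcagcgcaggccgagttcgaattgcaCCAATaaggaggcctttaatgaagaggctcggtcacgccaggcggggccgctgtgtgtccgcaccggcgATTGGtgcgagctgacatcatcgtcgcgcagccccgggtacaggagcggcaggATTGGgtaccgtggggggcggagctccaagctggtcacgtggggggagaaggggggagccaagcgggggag
Klf9: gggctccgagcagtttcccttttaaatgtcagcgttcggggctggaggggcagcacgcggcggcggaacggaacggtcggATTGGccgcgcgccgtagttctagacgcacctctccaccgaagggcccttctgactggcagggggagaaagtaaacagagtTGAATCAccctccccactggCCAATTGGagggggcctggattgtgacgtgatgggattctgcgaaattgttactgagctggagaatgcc
The MEF2 site of Klf2 lay 118 to 109 bases before the RefSeq start, and MEF2 factors are the known link from the kinase Mapk7 to Klf2. Of 32544 promoter windows of 300 bases, 3.16% held a MEF2 site, 37.4% a CCAAT box, 7.79% an AP-1 site and 35.9% a GC box (GGGCGG on either strand, not in capitals). Klf6 held 4 CCAAT boxes and Klf9 held 3. The Klf4 stretch held none of the capitalised motifs, and Klf2 and Klf4 held 2 and 4 GC boxes, of which a pair in Klf4 shares 1 base. No CArG box and no CRE (TGACGTCA, the cAMP response element) was found in these 4 stretches, which says only that the letters are not there.

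The deposited libraries held 69691783 to 116998401 UMIs. After the study's cell filters (at least 200 genes, at most 3000 genes in kidney or 4000 in tumor, at most 50% or 25% mitochondrial UMIs), 69.4 to 73.9% of barcodes were kept, and 88.3 to 97.6% of kept cells passed the gate of a single marker list. The median kept cell of the kidney 15 min library had 20.4% mitochondrial UMIs, against 7.38 and 8.59% in the control and 60 min libraries. Barcodes shared with another library of the tissue made up 0.44 to 2.04% of a library. In gated endothelial, macrophage, proximal tubule, tumor epithelial and T lymphocyte cells the median cell scored at most 0.0218 for any other list on a scale from 0 to 1. The gate required a lead over the next list, so these scores do not measure purity. Collecting duct principal cells scored 0.24 for another list in the control and 0.215 at 60 min, so that class was less clean. Tumor basal epithelial cells, pericytes and fibroblasts scored 0.160, 0.121 and 0.111 at 60 min. Kidney B lymphocytes scored up to 0.0731, and kidney dendritic cells 0.0673 in the control.

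In the control kidney, Klf2 was most abundant in endothelial cells at 2641 CPM (2576 to 2708), where 6166 UMIs came from 568 cells. B lymphocytes followed at 2528 CPM (2433 to 2626), then macrophages at 1302 CPM (1272 to 1332) and T lymphocytes at 949 CPM (887 to 1015). The intervals of endothelial cells and B lymphocytes overlapped, while those of the later steps in this order did not. Dendritic cells stood at 184 CPM, and the tubule classes between 8.36 CPM (collecting duct) and 64.4 CPM (distal convoluted tubule). The last value rests on 16 UMIs, 15 of them in 1 of 68 cells. In the tumor control, Klf2 was again highest in endothelial cells at 1024 CPM (977 to 1073), ahead of granulocytes at 785 CPM (716 to 859). Macrophages, epithelial cells and T lymphocytes of the tumor stood at 283, 187 and 172 CPM, the last pair with overlapping intervals. Klf2 thus supplied 56.5% of the UMIs of the 7 genes in kidney endothelium and 78.7% in B lymphocytes, but 3.16% in the proximal tubule.

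**Figure D1:**
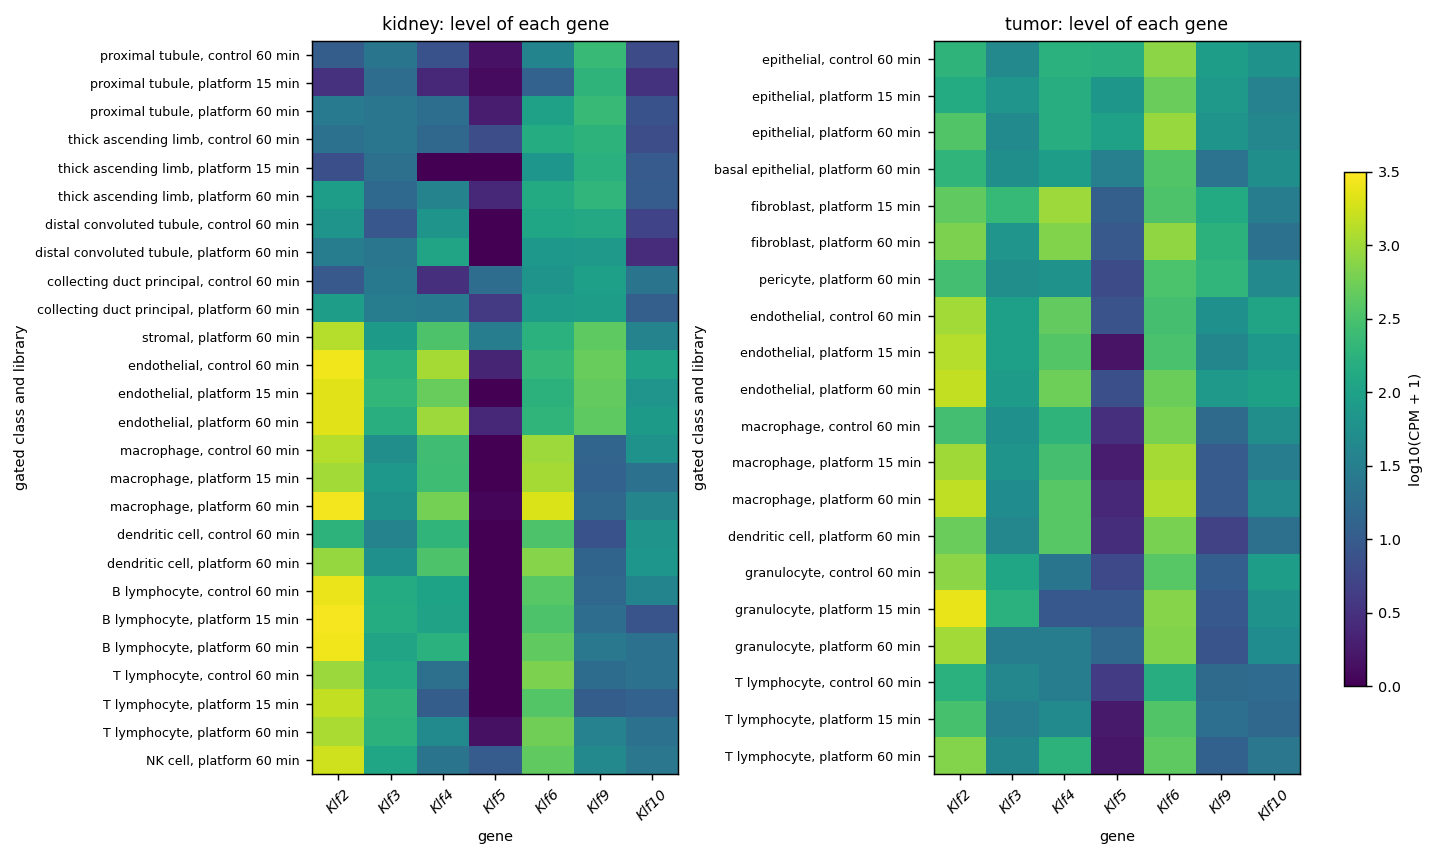
Level of each gene (columns) in each gated class and library with at least 50 cells (rows), as the base-10 logarithm of CPM + 1, kidney left and tumor right. Klf2 is bright in endothelial cells, B lymphocytes and macrophages, and Klf5 is dark in most classes outside tumor epithelium. Klf9 is bright in kidney endothelium and kidney tubule and darker in leukocytes.

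Klf4 shared the endothelial maximum with Klf2, at 1058 CPM (1017 to 1101) in the control kidney and 460.5 CPM (429 to 493) in the control tumor. Kidney macrophages and dendritic cells followed at 269.8 and 194 CPM, and in T lymphocytes the level was 18.5 CPM. Tumor fibroblasts, which had 50 or more gated cells in the platform libraries alone, carried more Klf4 than endothelium did there, at 957 CPM at 15 min and 681 CPM at 60 min. Klf6 had another order, with macrophages highest in kidney at 962 CPM (937 to 989) and T lymphocytes next at 653 CPM, while in the tumor control epithelial cells led at 783 CPM (773 to 792) over macrophages at 618 CPM (603 to 633). Klf6 was the single largest member in tumor epithelium, with 52.2% of the UMIs of the 7 genes in the control, and kidney endothelium held 212 CPM.

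Klf9 marked the non-leukocyte classes. In the control kidney its level was 488 CPM (460.0 to 517) in endothelium, 228 CPM in the proximal tubule and 183 CPM in the thick ascending limb, but 13.0 CPM in macrophages, 14.1 CPM in B lymphocytes and 16.3 CPM in T lymphocytes. In the proximal tubule, the segment that reclaims most filtered solutes, Klf9 made up 73.7% of the UMIs of the 7 genes in the control. The tumor control kept this split, with 92.0 CPM in epithelial cells, 55.7 CPM in endothelium and 15.3 CPM in macrophages. Tumor endothelium therefore carried far less Klf9 than kidney endothelium in every library, at 39.8 to 78.5 CPM against 432 to 488 CPM, a comparison of mice that differ in sex, age, strain and tissue. The split of Klf9 was less clean at 60 min, with 42.8 CPM in kidney NK cells and 20.2 CPM in tumor basal epithelial cells.

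Klf5 was an epithelial gene in the tumor, at 158 CPM (153 to 162) in the control against at most 6.89 CPM in any other control class with 50 or more cells. In kidney it was close to absent, with 53 UMIs in all kept control cells, 8 of them in collecting duct principal cells at 16.7 CPM (7.22 to 32.9). At 60 min Klf5 was 2.97 CPM in collecting duct principal cells and 29.1 CPM in 53 stromal cells. In control kidney macrophages 0 UMIs of Klf5 were found, where a floor of 3 counts corresponds to 0.541 CPM. Klf3 ran in the control kidney from 8.05 CPM in the distal convoluted tubule, on 2 UMIs, to 171 CPM in endothelium, with T and B lymphocytes at 143 and 141 CPM. Klf10 was sparse, highest in control endothelium at 103 CPM (90.2 to 117) in kidney and 109 CPM (94.1 to 126) in tumor, and at 5.49 CPM in the proximal tubule.

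In the proximal tubule, Klf2, Klf4 and Klf6 differed widely between the dissociations. This class pools the convoluted and straight segments, which the study clustered apart, and the part of their mix in these levels was not tested. Klf2 stood at 9.77, 2.20 and 25.4 CPM in the control, 15 min and 60 min libraries, Klf4 at 6.65, 1.48 and 17.3 CPM and Klf6 at 37.1, 11.5 and 101 CPM. For all 3 genes the 15 min platform library was lowest and the 60 min platform library highest, with no overlap of the counting intervals. Against the control at 15 min, Klf2 was 4.45-fold lower (3.52 to 5.63), Klf4 4.49-fold lower (3.38 to 6.00) and Klf6 3.24-fold lower (2.91 to 3.61). At 60 min their log2 ratios were 1.38 (1.13 to 1.63), 1.38 (1.07 to 1.68) and 1.44 (1.32 to 1.57), each more than 2-fold higher. As a mean over cells the 60 min log2 ratios of Klf2 and Klf4 were 0.90 and 0.94, and Klf2 was at 0.83 with cells over the limits added, so these calls were lost, while Klf6 stayed past 2-fold under all 6 planned settings. Both ratios share the control library, so a low or high value in it moves both. Klf10 was also 2.46-fold lower (1.88 to 3.22) at 15 min, whereas Klf9 differed little, at 228, 188 and 231 CPM.

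All 7 genes were lower than the control at 15 min in the proximal tubule, 4 of them by at least 2-fold, where 2.65% of 11897 genes were at least 2-fold lower and the median log2 ratio of all genes was -0.21. Of all genes, 28.2% were higher than the control at 15 min. All 7 lay above the control at 60 min, 3 of them by at least 2-fold, against 7.65% of 11744 genes, at an all-gene median of 0.12. At that time 62.6% of all genes were higher. The 60 min intervals of Klf3, Klf5, Klf9 and Klf10 spanned a ratio of 1. Klf5 was compared on 9, 16 and 16 UMIs, its 60 min log2 ratio was -0.28 with cells over the limits added, and its log2 ratio at 15 min was -0.73 (-2.00 to 0.63). Mitochondrial UMIs made up 14.4, 22.6 and 17.4% of the class in the control, 15 min and 60 min libraries. Leaving them out of the denominator gave log2 ratios at 15 min of -2.01 for Klf2, -2.02 for Klf4 and -1.55 for Klf6.

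RNA of other cells could be present in these droplets, and genes that no gate uses gave a measure of it. Endothelial genes (Esam, Tie1, Ly6c1, Ecscr) stood in proximal tubule cells at 0.0590% (control), 0.0363% (15 min) and 0.265% (60 min) of their endothelial level, and macrophage genes (Lyz2, Tyrobp, Fcer1g, Ctss) at 0.132, 0.0202 and 0.356% of their macrophage level. At those percentages Klf2 would reach 3.27, 1.01 and 15.6 CPM, and the 60 min ratio of what remained was 1.51-fold instead of 2.61-fold. Klf6 would reach 1.39, 0.280 and 7.67 CPM, and Klf4 0.980, 0.229 and 4.68 CPM. Without these amounts Klf6 was 2.61-fold and Klf4 2.22-fold higher at 60 min. The lists were chosen after the data had been seen.

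Proximal tubule cells above the limit of 3000 genes, left out above, held more UMIs of each of the 7 genes in each library than the cells within the limits. For Klf4 in the control these were 4949 and 126 UMIs. There were 1259, 2621 and 1906 such cells in the control, 15 min and 60 min libraries, with medians of 19335, 17561 and 18568.5 UMIs, against 5588, 7203 and 6083 in the cells below the limit. Klf4 stood in them at 189, 30.6 and 125 CPM, Klf2 at 81.3, 20.3 and 124 CPM and Klf6 at 227, 104 and 430.0 CPM. The 15 min library was again lowest for all 3 genes and the 60 min library highest for Klf2 and Klf6, but Klf4 was higher in the control than at 60 min. Adding all cells over either limit therefore turned the 60 min log2 ratio of Klf4 in the proximal tubule from 1.38 to -0.34. Klf9 was near level across these deeper cells, at 309.9, 320.3 and 339 CPM. At the percentages of the endothelial and macrophage genes in the same cells, Klf4 would reach 3.87, 1.59 and 11.0 CPM. No doublet caller was run, and the part of doublets in these levels was not tested.

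**Figure D2:**
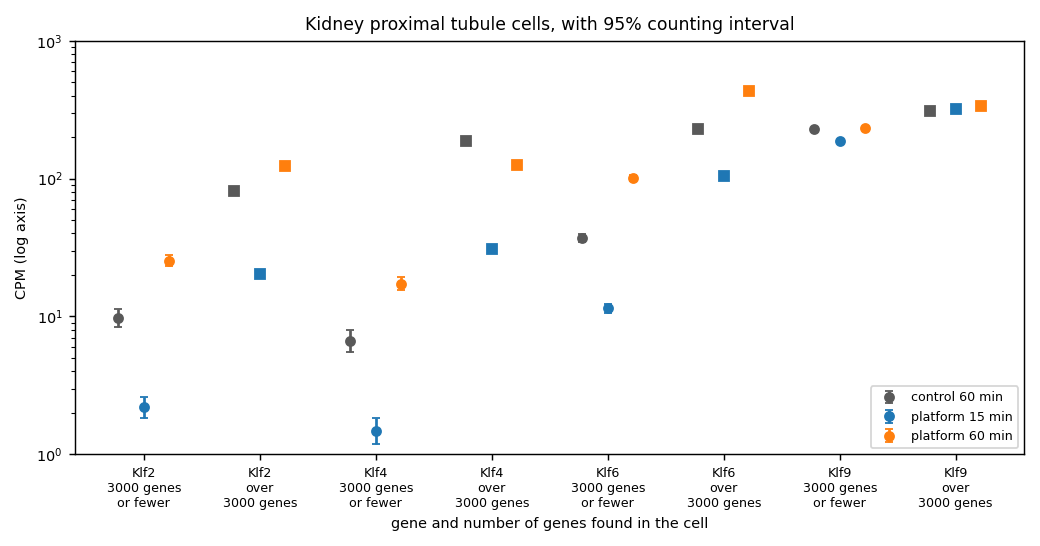
Klf2, Klf4, Klf6 and Klf9 in kidney proximal tubule cells with at most 3000 genes (circles) and with more (squares), in CPM on a log axis, coloured by library, with 95% Poisson intervals. Squares lie above circles for each gene and library, the 15 min library is lowest for Klf2, Klf4 and Klf6, and the order of control and 60 min is turned round for Klf4 between circles and squares.

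In kidney endothelium most members lay close to the control at 15 min, with log2 ratios from -0.26 for Klf2 to 0.29 for Klf3 outside Klf4 and Klf10. Klf2 was 2641, 2204 and 2221 CPM and Klf9 488, 453 and 432 CPM in the control, 15 min and 60 min libraries. Klf4 was the exception, at 1058, 487 and 974 CPM, that is 2.17-fold lower (1.99 to 2.37) at 15 min. It was the 1 member of 6 compared that passed 2-fold there, against 3.53% of 9553 genes that were at least 2-fold lower. Klf10 was 1.58-fold lower (1.24 to 2.04) at 15 min, and Klf3 was slightly higher, at 1.22-fold higher (1.04 to 1.42). At 60 min all 6 compared members were below the control, by log2 ratios from -0.39 for Klf10 to -0.08 for Klf3, with intervals that spanned 0 for Klf3 and Klf6. Over all genes the median there was 0.01, and 51.3% were higher than the control. Endothelial cells numbered 568, 368 and 2414, so the 60 min value is the most precise.

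Tumor endothelium differed in another way. Klf2 stood at 1024, 1289.6 and 1503 CPM and Klf6 at 297, 311 and 512 CPM, both highest at 60 min, where Klf2 was 1.47-fold higher (1.40 to 1.54) and Klf6 1.72-fold higher (1.57 to 1.89) than in the control. Klf4 was 460.5, 366 and 536 CPM, lowest at 15 min as in kidney, and Klf9 followed the same order with 55.7, 39.8 and 78.5 CPM, though its log2 ratio at 15 min was 0.23 after thinning to 1000 UMIs. The median cell had 4497, 7574 and 8186 UMIs, so the control endothelial cells were the shallowest. When every cell was thinned to 1000 UMIs, 44.1, 44.7 and 55.2% of them held a Klf2 UMI, against 72.8, 76.5 and 87.9% unthinned.

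**Figure D3:**
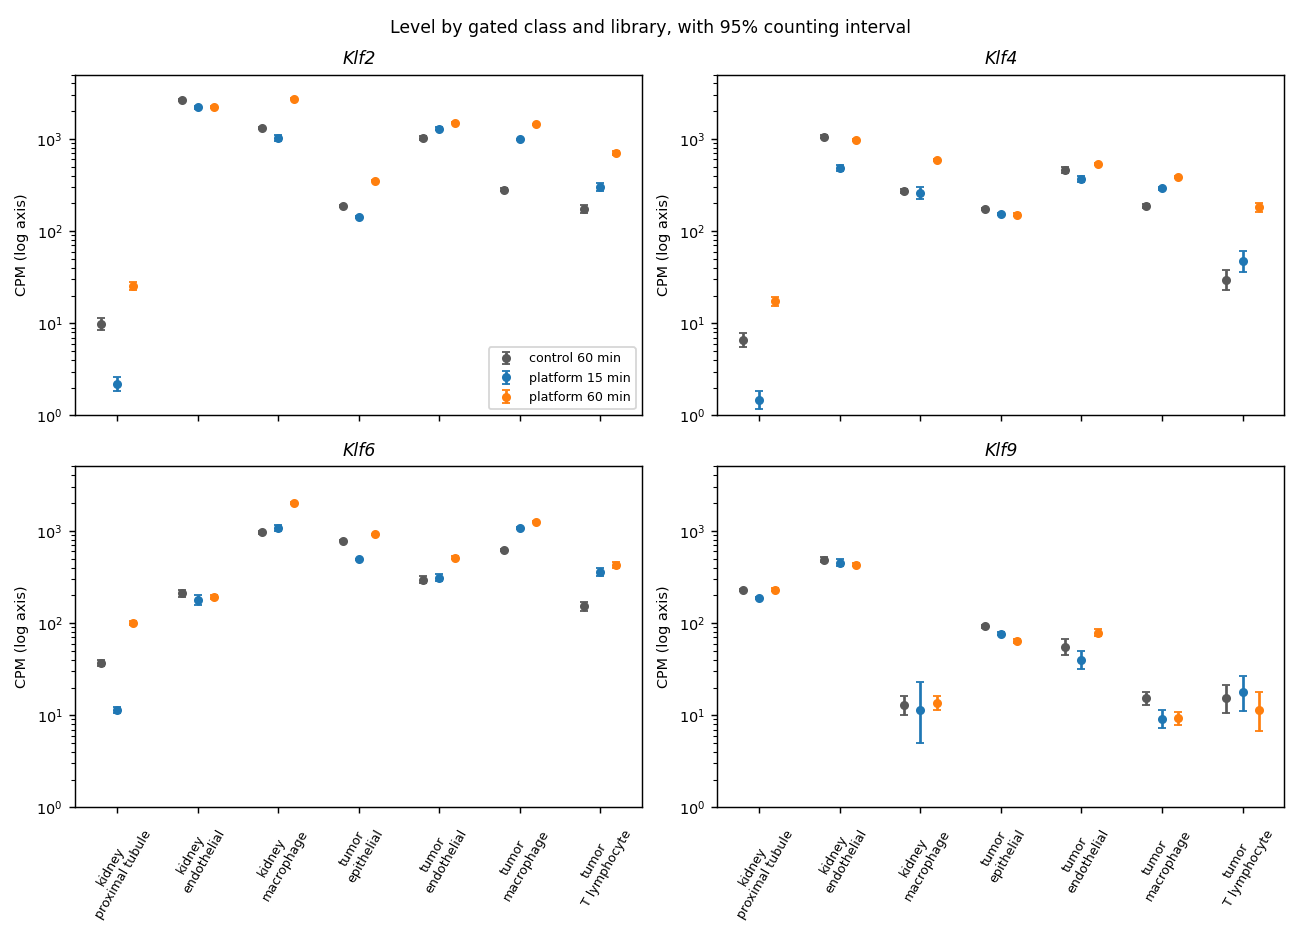
Klf2, Klf4, Klf6 and Klf9 in the main gated classes of kidney and tumor, in CPM on a log axis, with 95% Poisson intervals; grey is the control, blue the 15 min and orange the 60 min platform library. Orange points lie above grey for Klf2, Klf4 and Klf6 in proximal tubule, macrophages and tumor T lymphocytes, while Klf9 is higher in tubule, epithelium and endothelium than in leukocytes.

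Macrophages carried higher Klf2, Klf4 and Klf6 in the 60 min platform library of both tissues. In kidney, Klf2 was 1302, 1034 and 2733 CPM, Klf6 962, 1067 and 2013 CPM and Klf4 269.8, 259.5 and 589 CPM, in the same order of libraries. At 60 min Klf2 was 2.10-fold higher (2.05 to 2.16), Klf6 2.09-fold higher (2.03 to 2.16) and Klf4 2.18-fold higher (2.06 to 2.31), so that 3 of 6 compared members passed 2-fold where 4.98% of 11024 genes did. Klf10 went the other way, 1.60-fold lower (1.37 to 1.86). At 15 min, with 129 macrophages, Klf2 was 1.26-fold lower (1.17 to 1.36) and Klf10, on 14 UMIs, 3.04-fold lower (1.79 to 5.62). Klf10 was the 1 member past 2-fold lower at that time, against 6.79% of 9337 genes. After thinning to 1000 UMIs, 37.9, 46.4 and 63.0% of kidney macrophages held a Klf2 UMI (59.1, 64.3 and 81.6% unthinned, at medians of 6831, 5329 and 6099.5 UMIs), and 0.907, 0.239 and 2.54% of proximal tubule cells did (4.03, 1.18 and 10.0% unthinned, at medians of 5588, 7203 and 6083 UMIs).

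In tumor macrophages the control was the low library. Tumor macrophages and tumor T lymphocytes were each taken as a single class, and the part of subtypes in their levels was not tested. Klf2 stood at 283, 988 and 1446 CPM. It was 3.50-fold higher (3.36 to 3.64) at 15 min and 5.11-fold higher (4.93 to 5.31) at 60 min. Klf6 was 618, 1081 and 1264 CPM and Klf4 188, 292 and 389 CPM, both stepwise higher at 15 and 60 min with intervals that did not overlap. Klf9 and Klf10 were lower than the control at 15 min, at 15.3, 9.21 and 9.26 CPM and 52.5, 28.4 and 45.5 CPM. At 15 min 1 of 7 members was at least 2-fold higher and 1, Klf5 on 8 against 22 UMIs, at least 2-fold lower with an interval that reached past 0, against 10.7 and 4.89% of 11174 genes. At 60 min 3 members were at least 2-fold higher, against 5.21% of 11621 genes. Klf4 and Klf6 lay close to the threshold, with log2 ratios of 1.05 (0.98 to 1.12) and 1.03 (0.99 to 1.07). The Klf4 call was lost after thinning to 1000 UMIs (0.85) and the Klf6 call as a mean over cells (0.98).

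Tumor T lymphocytes gave the same direction for Klf2, Klf4 and Klf6 at a lower level. Klf2 was 172, 299.7 and 704 CPM, Klf6 153, 358 and 426 CPM and Klf4 29.4, 47.0 and 181 CPM in 265, 184 and 285 cells. At 15 min Klf6 was 2.35-fold higher (2.04 to 2.71), the 1 of 6 members past 2-fold, against 7.12% of 8376 genes. As a mean over cells its log2 ratio was 0.92, so this call was lost. The 15 min log2 ratio of Klf2 went from 0.80 to 0.35 with the stricter gate. At 60 min Klf2 was 4.08-fold higher (3.63 to 4.60), Klf4 6.14-fold higher (4.68 to 8.17) and Klf6 2.80-fold higher (2.45 to 3.19), that is 3 of 6 members against 6.21% of 8433 genes. At the level of endothelial and macrophage genes in these cells, which include Tyrobp and Fcer1g that some lymphocytes also express, Klf4 would reach 28.4, 44.9 and 29.9 CPM, close to what was measured in the control and at 15 min but not at 60 min. Klf2 would reach 43.2, 152 and 109 CPM and Klf6 91.7, 165 and 92.8 CPM. What remained of Klf2 was 1.14-fold higher at 15 min, instead of 1.74-fold, and 4.60-fold higher at 60 min, and what remained of Klf6 3.18-fold and 5.48-fold higher. Kidney T lymphocytes had higher Klf2, 949, 1520.5 and 1134 CPM, and lower Klf6 at 15 min, 653, 369 and 555 CPM, neither of them past 2-fold.

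Among the other leukocytes, kidney dendritic cells of the 60 min library held 4.76-fold higher (3.93 to 5.81) Klf2 (184 and 877 CPM in control and 60 min) and 2.22-fold higher (1.91 to 2.59) Klf6, so 2 of 6 members passed 2-fold, against 5.74% of 6602 genes. These rest on 59 and 163 cells. At the level of endothelial and macrophage genes in dendritic cells, Klf2 would reach 499 and 962 CPM and Klf6 368 and 705 CPM. Measured levels were 184 and 877 CPM for Klf2 and 328 and 727 CPM for Klf6. The estimate overshot for Klf2 in both libraries and for Klf6 in the control, and the part of other cells' RNA was not tested. Kidney T lymphocytes at 60 min had 2 of 6 members at least 2-fold higher, Klf4 on 104 UMIs against 17 in the control and Klf9 on 78 against 15, where the share was 3.62% of 8010 genes. In these T lymphocytes endothelial and macrophage genes would bring 11.0 and 18.0 CPM of Klf4, against 18.5 and 45.9 CPM measured in control and 60 min. In B lymphocytes Klf2 was steady at 2528, 2805 and 2624 CPM, while Klf10 was 5.08-fold lower (2.14 to 14.7) at 15 min on 6 against 39 UMIs, the 1 member past 2-fold against 3.91% of 6657 genes. Tumor granulocytes had 785, 2389 and 1039 CPM of Klf2, 3.04-fold higher (2.69 to 3.44) at 15 min, the 1 of 4 members past 2-fold, against 11.0% of 3386 genes. At 60 min Klf3 was 4.06-fold lower (1.52 to 15.3) in granulocytes on 4 against 70 UMIs, against 12.8% of 2921 genes.

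In tumor epithelial cells, 2411 to 3884 per library, the members parted. This class pools luminal and proliferating luminal cells, which the study clustered apart, and it reported fewer of the latter in both platform libraries. The part of their mix in these levels was not tested. Klf5 was 158, 69.9 and 99.6 CPM and highest in the control, 2.26-fold lower (2.15 to 2.37) at 15 min and 1.58-fold lower (1.51 to 1.66) at 60 min. It was the 1 of 7 members past 2-fold at 15 min, against 3.35% of 13930 genes that were at least 2-fold lower. Klf10 and Klf9 were also highest in the control, at 61.8, 35.1 and 40.2 CPM and 92.0, 76.5 and 64.2 CPM. Klf2 and Klf6 instead were lowest at 15 min and highest at 60 min, with 187, 143 and 354 CPM and 783, 494 and 921 CPM, the order they showed in the proximal tubule. Klf3 was higher at 15 min alone, at 43.1, 65.5 and 44.1 CPM, and Klf4 was 174, 153 and 151 CPM. In epithelial cells over 4000 genes Klf5 stood at 249.7, 79.9 and 132 CPM and Klf6 at 1217, 693 and 1261 CPM, in the same order of libraries.

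The distal tubule classes were small. At 60 min, Klf2 in the thick ascending limb was 87.6 CPM against 19.7 CPM in the control, and Klf4 was 35.8 against 14.0 CPM, so 2 of 5 members passed 2-fold against 8.65% of 6806 genes. Of the 120 Klf2 UMIs at 60 min 53 came from 1 cell, and Klf4 rested on 5 control UMIs from 2 cells. With cells over the limits added the log2 ratio of Klf4 was -0.91. At the level of endothelial and macrophage genes in this class, Klf2 would reach 85.5, 59.0 and 106 CPM in the control, 15 min and 60 min libraries, above the 19.7, 6.11 and 87.6 CPM measured, so the estimate overshot in this class, and the part of other cells' RNA was not tested. At 15 min Klf6 was 2.17-fold lower (1.30 to 3.76) there, the 1 of 2 members compared, against 7.48% of 3661 genes. In collecting duct principal cells Klf2 rested on 4 control UMIs and 61 at 60 min (8.36 and 90.5 CPM), the 1 of 4 members past 2-fold against 3.44% of 6165 genes. Of those 61 UMIs, 53 came from 1 of 156 cells, and endothelial and macrophage genes would bring 3.03 and 31.3 CPM. In the distal convoluted tubule Klf2 was 2.16-fold lower (1.02 to 4.56), on 17 UMIs at 60 min against 16 in the control, the 1 of 4 members, against 5.07% of 4183 genes. The control UMIs came from 2 cells, and endothelial and macrophage genes would bring 40.2 and 51.9 CPM, against 64.4 and 29.7 CPM measured. In both of the latter classes 1 cell held most of the Klf2 UMIs of a library.

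Counted over all classes compared, the kidney at 15 min gave 33 pairs of member and class, 25 of them lower and 8 higher than the control, with 8 at least 2-fold lower and 0 at least 2-fold higher. Over all genes of the same classes, 4.64% were at least 2-fold lower and 3.03% at least 2-fold higher. The median log2 ratio was -0.28 over the members and -0.02 over all genes. At 60 min, 34 of 50 kidney pairs were higher, 13 by at least 2-fold against 5.10% of all genes, and 1 was at least 2-fold lower against 2.13%, at medians of 0.23 and 0.01. In the tumor at 15 min, 14 of 30 pairs were higher, 3 were at least 2-fold higher and 2 at least 2-fold lower, against 5.91 and 4.11% of all genes, at medians of -0.10 over the members and 0.17 over all genes. At 60 min 16 of 31 were higher, 6 at least 2-fold higher and 1 at least 2-fold lower, against 3.77 and 3.53%, at medians of 0.03 and -0.03. All 6 tumor pairs past 2-fold higher at 60 min were Klf2, Klf4 or Klf6 in macrophages and T lymphocytes. Klf4 and Klf6 in macrophages were close to the threshold.

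**Figure D4:**
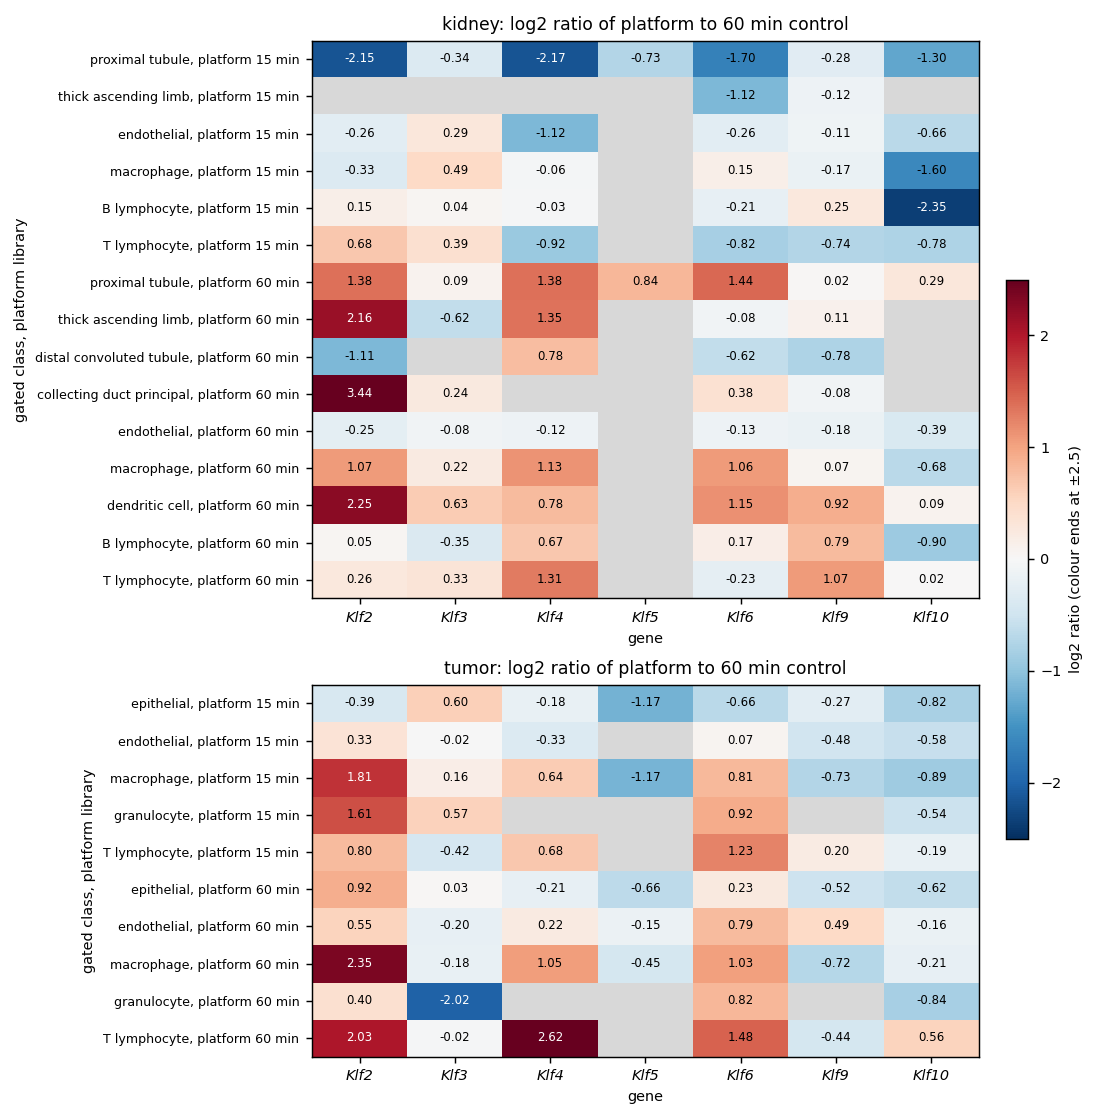
Log2 ratio of each platform library to the 60 min control for each gene (columns) and gated class (rows), kidney above and tumor below; grey cells had too few UMIs to compare. The top row, proximal tubule at 15 min, is blue throughout, proximal tubule at 60 min is red or near white, and the darkest red cells of the tumor at 60 min gather in Klf2, Klf4 and Klf6 of macrophages and T lymphocytes.

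Klf10 was lower than the control in all 5 kidney classes and all 5 tumor classes compared at 15 min. In the kidney its log2 ratio ran from -2.35 in B lymphocytes to -0.66 in endothelium, and in the tumor from -0.89 in macrophages to -0.19 in T lymphocytes, with intervals that reached past 0 in the T lymphocytes of both tissues and in granulocytes. The log2 ratio turned positive in granulocytes as a mean over cells (0.20) and in tumor T lymphocytes with the stricter gate (0.06) and less the RNA of other cells (0.25). Klf3 showed no such common direction, with log2 ratios at 15 min from -0.34 to 0.49 in kidney and from -0.42 to 0.60 in the tumor.

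Genes known to stand upstream of Klf2 and Klf4 were set beside them. The kinases Map2k5 and Mapk7 and the factors Mef2a, Mef2c and Mef2d were all compared in the proximal tubule. At 15 min 0 of 5 was at least 2-fold higher and 1, Mef2c, at least 2-fold lower (log2 ratio -2.10), against 2.65% of genes lower. At 60 min Mef2c alone was at least 2-fold higher (1.33), against 7.65% of genes. Mef2c was also present in endothelial cells and macrophages, and the part of their RNA in its tubule level was not tested. In kidney and tumor macrophages at 60 min 0 of 5 passed 2-fold either way. Of 6 genes known as targets of Klf2 or Klf4, 4 of 5 compared in kidney macrophages at 60 min were higher. Of these, 3 were at least 2-fold higher, against 4.98% of genes, and the median was 1.08 beside 0.03 over all genes. In tumor macrophages 1 of 4 was higher, 0 by at least 2-fold, and 1 was at least 2-fold lower against 2.75% of 11621 genes, at a median of -0.91 beside 0.01. S1pr1, a receptor for lymphocyte exit signals, had a log2 ratio of 1.45 in kidney and 0.91 in tumor macrophages at 60 min. Thbd, an anticoagulant receptor, had 1.08 and -1.19. Endothelial genes stood in kidney macrophages at 0.107% of their endothelial level in the control and 0.855% at 60 min. The part of endothelial RNA in these target levels was not tested. At 15 min, where Klf2 was lower in kidney macrophages, 2 of 2 targets compared were higher, at a median of 0.84. In tumor epithelium at 60 min 3 of 3 compared were at least 2-fold higher, against 2.08% of 13576 genes. In kidney endothelium 3 of these 6 targets could be compared at 15 min and 0 passed 2-fold, with -0.16 for Nos3, which makes nitric oxide, and -0.40 for Thbd.

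The immediate early genes Fos, Junb, Egr1 and Atf3, set beside the members, were all at least 2-fold lower in the proximal tubule at 15 min. Their log2 ratios ran from -5.62 (Atf3) to -2.59 (Junb), where 2.65% of all genes were at least 2-fold lower. All 4 were also at least 2-fold lower in kidney endothelium at that time, from -4.05 to -1.31, against 3.53% of genes. In tumor macrophages 3 of 4 were at least 2-fold higher at both times, with Egr1 at 2.90 and 1.81, against 10.7 and 5.21% of genes. In tumor T lymphocytes 3 of 4 passed at both times, against 7.12 and 6.21% of genes. In kidney macrophages 1 of 4 passed 2-fold higher at 15 min, Fos at 1.24, against 5.62% of genes. At 60 min 3 of 4 did, against 4.98%. Of 6 other glucocorticoid targets, 6 were higher in the proximal tubule at 60 min, at a median of 0.92 beside 0.12 over all genes. Of these, 2 were at least 2-fold higher, Dusp1 (1.34) and Zbtb16 (1.17), against 7.65% of genes. At 15 min 1 of 6 was higher there and 0 passed 2-fold, at a median of -0.36, while Klf9 itself was at -0.28 and 0.02. In proximal tubule, kidney and tumor endothelium and macrophages and tumor epithelium, Tsc22d3 ran from -0.54 to 0.52 and Fkbp5 from -0.33 to 0.46 over both times, whereas Dusp1, a phosphatase that is also an early gene, had 1.81 in tumor macrophages at 15 min. Of genes known as Tgf-beta targets, Smad7, an inhibitor of the pathway, had log2 ratios at 15 min of -0.58, -0.27, -1.19, -1.35, -1.02 and 0.33 in proximal tubule, kidney endothelium, kidney macrophages, tumor epithelium, tumor endothelium and tumor macrophages. In the same order Skil, a repressor of Smad proteins, was at -0.70, -0.80, -1.29, -0.46, -0.35 and 0.02 and Tgif1, a further Smad co-repressor, at -0.48, -0.46, -0.78, -0.66, -0.68 and -0.51. The share of all genes at least 2-fold lower was 2.60% of 9382 in tumor endothelium. Klf10 was below the control in all 6 classes, tumor macrophages included, where Smad7 was above it.

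Other family members were mostly sparse. Of 10 (Klf1, Klf7, Klf8 and Klf11 to Klf17), 7 could be compared in the proximal tubule. There Klf11, a relative of Klf10, had log2 ratios of -1.13 at 15 min and 1.15 at 60 min. It was the 1 gene of the 7 past 2-fold each time, against 2.65% of genes lower at 15 min and 7.65% higher at 60 min. In tumor epithelium at 15 min Klf16 was at -1.54 and Klf15, on 17 against 5 UMIs, at 1.43, the 2 of 7 past 2-fold in either direction, against 3.35% of genes lower and 2.30% higher. In tumor T lymphocytes at 15 min 2 of 3 were at least 2-fold lower, Klf13 at -1.17 and Klf16 at -1.67, against 3.98% of 8376 genes.

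The genes whose levels ran most like each member were taken over the 26 kidney and 20 tumor points of class and library, on log2(CPM + 10), as a description. These points share libraries and cell types, so the values give no test. For Klf2 in kidney the closest were the interferon-inducible genes Mndal and Ifi203, and Ddx5, with Pearson r of 0.97, 0.96 and 0.95. Klf4 in kidney ran with Fosb (0.95), Jun (0.91) and Stat2 (0.91), the first and second of them early response genes, and in the tumor with Bag3 (0.91), Pdlim4 (0.88) and Eif4g3 (0.86). Klf6 in the tumor was closest to Atf3 (0.81), Gm17056 (0.77) and Zfp36 (0.77), and in kidney to Fnbp1 (0.92), Pim1 (0.91) and H3f3b (0.90). Klf5 in the tumor followed the epithelial genes Crabp2 (0.96), Syne4 (0.95) and Krt19 (0.95), and Klf9 in kidney followed Timp3 (0.96), Wwtr1 (0.96) and Selenof (0.96). Klf10 in kidney ran with Grasp (0.91), Icam1 (0.90) and Irf1 (0.89) and in the tumor with Id1 (0.80), a Tgf-beta family target, and Klf7 (0.79). Klf3 in kidney was nearest to Grap (0.95), Sipa1 (0.94) and Stag1 (0.94). Among the members themselves, Klf2 and Klf3 had r of 0.88 in kidney and 0.39 in the tumor, and Klf6 and Klf9 -0.68 and -0.13.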

How the data were processed

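Single-cell libraries (10x, 3′ tags) of 6 samples were analysed, 1 per condition. The authors deposited raw UMI counts of every gene in every cell, made with Cell Ranger 3.1.0 on mm10 and evened for depth on aggregation, per the labels and the study's methods, so that counts of deeper libraries had been thinned. The part of a barcode after the dash was read as the order of libraries in the deposited aggregation list. Counts held 69691783 to 116998401 UMIs per library. Cells were kept at 200 or more genes, at most 3000 (kidney) or 4000 (tumor) genes and at most 50 or 25% mitochondrial UMIs. No doublet caller was run, so the only guards were the upper limit on genes and the lead over the next class that the gate required.

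Kept cells were gated to 13 kidney and 11 tumor classes from marker lists. A cell took the class with the highest score if that score was at least 0.2, rested on at least 2 markers and was at least 2-fold that of the next class, thresholds set after the files had been seen. Counts were summed per class and library and given as CPM with exact Poisson 95% intervals. Ratios carry exact conditional binomial 95% intervals, a count of 0 entered at a floor of 3 counts, and a gene needed 20 UMIs over both libraries and a class 50 cells in each. A gene at least 2-fold away was called. With 1 library per condition no test was made, and both platform libraries were set against the same control. The named genes were the 7 members, fixed lists of related genes and, for likeness, the 3 genes with the highest Pearson r per member. The members and lists were chosen with earlier results of these data known. The full count of the Tgf-beta target list is not reported here. Motif matches were counted with overlapping ones included. Alternatives were 6 planned settings and, added after seeing the data, levels less RNA of other cells and cells over each limit on their own. The ratio and interval code was tested on simulated data. Python 3.11.15, numpy 2.4.6, scipy 1.17.1 and pandas 2.3.3 were used.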

Additional observations from a re-analysis of the deposited data

Results flagged for a closer look

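Log2 ratios to the control that lay on opposite sides of 0 in kidney and tumor, or at 15 and 60 min, with intervals that did not reach 0, are listed here. None of these differences was tested, since each condition had 1 library, and both times share a control.

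Between tissues at 15 min, Klf2 was at -0.26 in kidney and 0.33 in tumor endothelial cells. Klf2 in macrophages was at -0.33 in kidney and 1.81 in tumor. Klf6 in T lymphocytes was at -0.82 in kidney and 1.23 in tumor. At 60 min, endothelial cells of kidney and tumor had -0.25 and 0.55 for Klf2, -0.12 and 0.22 for Klf4, and -0.18 and 0.49 for Klf9. Klf3 in macrophages was at 0.22 and -0.18, and Klf6 in T lymphocytes at -0.23 and 1.48.

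Between 15 and 60 min, kidney proximal tubule cells had -2.15 and 1.38 for Klf2, -2.17 and 1.38 for Klf4, and -1.70 and 1.44 for Klf6. Kidney macrophages had -0.33 and 1.07 for Klf2. Tumor epithelial cells had -0.39 and 0.92 for Klf2 and -0.66 and 0.23 for Klf6. Tumor endothelial cells had -0.33 and 0.22 for Klf4 and -0.48 and 0.49 for Klf9.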

How the results depend on the processing

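No paired analysis was possible because each condition had 1 library. Of 144 ratios, the looser gate moved 3 beyond their counting interval, leaving mitochondrial UMIs out moved 1, and a mean over cells moved 24. The stricter gate moved 5 of 131 and thinning to 1000 UMIs 49 of 111. When cells above either limit (genes or mitochondrial UMIs) were added, 35 moved, and 2 of the ratios past 2-fold turned round, Klf4 at 60 min in the proximal tubule to -0.34 and in the thick ascending limb to -0.91. Counting ratios of any size, 14 of 144 changed sign without the limits, 12 of 144 as a mean over cells, 15 of 111 after thinning, 7 of 131 with the stricter gate, 3 without mitochondrial UMIs and 0 with the looser gate. Of the ratios past 2-fold, 25 of 34 stayed past it without the limits, 25 of 34 as a mean over cells and 21 of 26 after thinning.

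Thinning changed the kidney 15 min counts from 25 of 33 to 16 of 24 lower and from 8 to 4 at least 2-fold lower, and the latter was 13 without limits. At 60 min in kidney, thinning left 33 of 50 pairs compared and 17 instead of 34 higher. Without limits 29 instead of 16 were lower and 5 instead of 1 at least 2-fold lower, which was 0 after thinning and as a mean over cells. In the tumor at 15 min, the median log2 ratio of -0.10 was 0.05 with the stricter gate and 0.04 after thinning, and 1 instead of 2 was at least 2-fold lower without limits and after thinning. At 60 min thinning gave 9 of 27 instead of 15 of 31 lower, and those at least 2-fold lower went from 1 to 3 without limits, 3 after thinning, 2 with the stricter gate and 2 as a mean over cells. The causes were not tested. Depth limits Klf5 and Klf10 and all members in the small tubule classes, and 1 library per condition leaves the spread between animals and digestions unmeasured.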
